A study of Mus musculus with 12 samples.

Results

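The RNA levels of 37 genes of autophagy and mitophagy were followed through the exit of mouse embryonic stem cells from naïve pluripotency, with and without the mitochondrial outer membrane protein MTCH2. They are 37 of 38 genes chosen by name from the known machinery, and all 37 were found among the 46477 gene symbols of the count table. Each of the 37 passed the filter on low counts and was among the 17369 genes tested.

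Autophagy encloses cytoplasm in a growing double membrane, the phagophore, which closes into an autophagosome and fuses with a lysosome. A kinase complex around ULK1 starts the process, a lipid kinase complex around Beclin 1 marks the membrane, ATG2 and ATG9 feed it with lipid, and a conjugation system attaches small proteins to it. Receptors that bind these proteins pick the cargo. In mitophagy the cargo is mitochondria, which are either tagged with ubiquitin after the kinase PINK1 has gathered on them or recognised through receptors that sit in the mitochondrial outer membrane, such as BNIP3. Mouse stem cells in the naïve state carry rounded mitochondria that change in shape and use as the cells become primed.

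The 12 libraries form 4 groups of 3, each from C57BL/6 cells that the labels trace to the embryo at E3.5. MTCH2 F/F ESCs, which carry loxP-flanked alleles of Mtch2 and are labelled wild type, were kept in 2i/L, that is LIF with the inhibitors CHIR99021 and PD0325901. MTCH2 F/F EpiLCs were the same kind of cells after priming with Activin A and FGF2 (AF) on Matrigel, in the same N2B27 base with knockout serum replacement and without LIF and the inhibitors. MTCH2-/- ESCs were MTCH2 F/F ESCs treated with a recombinant cell-permeable Cre, and MTCH2-/- EpiLCs were these cells after the same priming. The MTCH2 F/F cells had not received Cre, so the effects of the deletion and of Cre itself cannot be told apart. The same holds for the agents added and withdrawn together on priming. The labels number the libraries of each group 1 to 3 and do not say whether these are separate lines or cultures, so p-values measure the spread between these libraries.

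Libraries held 17453328 to 24068523 counts. Levels are given as CPM, counts scaled to a common library total after TMM correction. Mtch2 lay between 122 and 183 CPM in the 6 MTCH2 F/F libraries and between 1.52 and 2.19 CPM in the 6 MTCH2-/- libraries, as labelled. The summed CPM of 8 naïve markers was 5195 to 5666 in MTCH2 F/F ESCs, 4337 to 4872 in MTCH2-/- ESCs, 327 to 610 in MTCH2 F/F EpiLCs and 2210 to 2284 in MTCH2-/- EpiLCs. For 8 formative and primed markers the sums were 154 to 159, 167 to 177, 3048 to 3691 and 729 to 949, in the same order. Cells were grown on embryonic fibroblast feeders before the experiment, and 12 fibroblast markers summed to 118 to 135 CPM in MTCH2 F/F ESCs, 94.6 to 133 in MTCH2-/- ESCs, 76.7 to 84.6 in MTCH2 F/F EpiLCs and 60.4 to 82.5 in MTCH2-/- EpiLCs, with none of the 12 at 0 in any group. Sums of 9 primitive endoderm markers were 182 to 205, 214 to 236, 97.4 to 106 and 155 to 201 CPM in MTCH2 F/F ESCs, MTCH2-/- ESCs, MTCH2 F/F EpiLCs and MTCH2-/- EpiLCs, and those of 8 trophoblast markers 139 to 159, 166 to 195, 44.6 to 57.5 and 60.2 to 73.3. None of these markers was at 0 in any group. In bulk RNA, fewer cells of a type and less RNA per cell cannot be told apart. Replicate 1 stood farther from the other libraries in both MTCH2-/- groups. The chi-square per degree of freedom between libraries of a group, which is near 1 for counting error alone, was 11.6 to 15.2 for pairs with it and 6.41 and 7.15 for the pairs without it, and at most 7.26 in MTCH2 F/F cells. With both of these libraries left out, an alternative chosen after seeing the data, 4 of the 119 calls among the 37 genes were lost, none of them of at least 2-fold, and 13 were gained.

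The promoters of 4 genes are shown, Atg3 picked for its motif and the others for their changes. They are Bnip3, which differed most between genotypes, Gabarapl2, which fell steeply on priming, Sqstm1, which was higher without MTCH2 in both media, and Atg3, which holds the motif of lysosomal gene promoters. The sequences are from RefSeq on GRCm38.p6, written 5′ to 3′ on the strand of the gene, and end just before the annotated start of the gene. Capitals mark CACGTG in Bnip3 and Atg3, and CACGT, the reverse complement of ACGTG, in Gabarapl2. Sqstm1 has neither in this window.
Bnip3, chr7:138909520-138909756, minus strand: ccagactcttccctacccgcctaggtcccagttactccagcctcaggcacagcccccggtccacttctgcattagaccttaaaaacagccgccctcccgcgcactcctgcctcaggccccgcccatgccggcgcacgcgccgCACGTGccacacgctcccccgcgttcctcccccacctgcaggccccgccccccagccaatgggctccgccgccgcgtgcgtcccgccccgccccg
Gabarapl2, chr8:111940453-111940702, plus strand: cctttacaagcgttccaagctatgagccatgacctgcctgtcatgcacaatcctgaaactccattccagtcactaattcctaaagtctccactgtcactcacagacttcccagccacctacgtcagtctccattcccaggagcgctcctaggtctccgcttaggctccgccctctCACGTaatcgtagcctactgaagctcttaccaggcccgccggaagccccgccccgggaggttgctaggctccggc
Atg3, chr16:45158579-45158784, plus strand: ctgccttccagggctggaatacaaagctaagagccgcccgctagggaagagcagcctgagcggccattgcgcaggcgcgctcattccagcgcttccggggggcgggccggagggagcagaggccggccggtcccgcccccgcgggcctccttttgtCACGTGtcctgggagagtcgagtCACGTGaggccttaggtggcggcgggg
Sqstm1, chr11:50210828-50211070, minus strand: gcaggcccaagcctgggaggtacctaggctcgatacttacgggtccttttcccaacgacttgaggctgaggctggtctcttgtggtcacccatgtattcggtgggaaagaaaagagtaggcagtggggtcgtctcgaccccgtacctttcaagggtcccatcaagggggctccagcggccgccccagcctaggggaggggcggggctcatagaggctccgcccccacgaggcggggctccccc

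CACGTG is an E-box, read by helix-loop-helix factors such as TFEB and TFE3. Its longer form TCACGTGA is found in many lysosomal and autophagy genes, and ACGTG is the core of sites of hypoxia-inducible factors. Windows of 250 bases before to 50 after the start were found for 29 of the 37 genes, in 31 promoters, and both strands were searched. CACGTG lay in 5 of the 31 (16.1%), those of Atg14, Atg3, Atg5, Atg7 and Bnip3, against 7.15% of all 32851 mouse promoters and 9.64% of the promoters of genes tested here. TCACGTGA, which contains CACGTG, lay in the Atg3 promoter alone among the 31 (3.23%), against 0.974% of all promoters and 1.63% of those of tested genes. ACGTG, which every CACGTG contains, lay in 13 of the 31 (41.9%), against 19.6% of all promoters and 24.5% of those of tested genes. The 5 genes with CACGTG did not move alike: Bnip3 rose and Atg14 and Atg7 fell (Atg7 by 0.30 on the log2 scale, adjusted p = 0.0103) on priming of MTCH2 F/F cells, while the changes of Atg5 and Atg3 there did not pass the test. These matches describe the letters and are not shown to be sites.

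On priming of MTCH2 F/F cells, 7 of the 37 genes rose and 19 fell, at an adjusted p under 0.05 (quasi-likelihood F test of edgeR, with p-values adjusted by Benjamini-Hochberg over all genes tested), which is 70.3% of them against 64.0% of all genes. Among all 17369 genes, 31.9% rose and 32.1% fell, so that a larger share of these genes fell (51.4%) and a smaller one rose (18.9%). Their median log2 fold change was −0.19, against −0.01 over all genes. At least 2-fold changes were found in 3 that rose (Bnip3, Optn and Ulk2) and 6 that fell (Calcoco2, Gabarapl2, Ulk1, Atg13, Atg14 and Atg2a), against 13.2% and 14.2% of all genes. In 28 of the 37 the libraries of both groups did not overlap, against 71.5% of all genes.

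On priming of MTCH2-/- cells 8 rose and 14 fell, against 20.0% and 22.2% of all genes (59.5% of the 37 against 42.2% in either direction), with a median of −0.13 against −0.02. A 2-fold change was reached by Calcoco2 and Gabarapl2, which fell, and by none that rose (5.99% of all genes fell and 5.97% rose that far). The libraries did not overlap for 23 genes, against 48.2% of all. These counts rest in part on a single library, as 5 rose and 9 fell without replicate 3 of the MTCH2-/- EpiLCs.

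Between genotypes the genes were divided evenly in ESCs, where 8 were higher and 9 lower in MTCH2-/- cells (23.3% and 20.4% of all genes; in either direction 45.9% of the 37 and 43.7% of all) and the median was −0.01. Sqstm1 was more than 2-fold higher and Calcoco2 more than 2-fold lower, against 9.06% and 1.92% of all genes. In EpiLCs 22 were higher in MTCH2-/- cells and 8 were lower, against 32.3% and 30.2% of all genes (81.1% against 62.5% in either direction), and the median was 0.24 against 0.02. At least 2-fold higher were 5 of them (Calcoco2, Sqstm1, Atg13, Gabarap and Uvrag, against 14.0% of all genes), and at least 2-fold lower were Bnip3 and Atg10 (7.03% of all genes). The groups did not overlap for 21 genes in ESCs (54.7% of all) and 31 in EpiLCs (67.0% of all). Lower in MTCH2-/- ESCs and higher in MTCH2-/- EpiLCs were 6 genes, Ulk1, Atg101, Atg14, Atg4b, Gabarapl2 and Calcoco2, while Ulk2 and Optn were the opposite. Sqstm1, Gabarap, Uvrag, Atg2b and Atg7 were higher and Wipi2 lower in both media. Of these calls, that of Ulk1 in ESCs was lost without replicate 1 of the MTCH2-/- ESCs (adjusted p = 0.0551), that of Atg4b in ESCs without replicate 2 of the MTCH2 F/F ESCs, replicate 3 of the MTCH2-/- ESCs or the genes under 10 CPM (up to 0.150), that of Atg7 in EpiLCs with replicate 3 of the primed MTCH2 F/F cells left out (0.0574), and that of Atg101 in EpiLCs in 10 alternatives (up to 0.152). The EpiLC comparison is between groups that also differ in their naïve and primed markers, which were 2210 to 2284 against 327 to 610 CPM and 729 to 949 against 3048 to 3691 CPM. Of the primitive endoderm markers 7 of the 8 tested were higher in MTCH2-/- EpiLCs and 1 lower, of the trophoblast markers 5 of 7 higher and 1 lower, and of the fibroblast markers 5 of 9 higher and 3 lower. In MTCH2-/- ESCs 6 of the 9 fibroblast markers tested were higher and 1 lower. Of the primitive endoderm markers 4 of 8 were higher there and 1 lower, and of the trophoblast markers 3 of 7 higher and 1 lower. Of the 8 naïve markers 1 was lower there and none higher, and of the 8 formative and primed markers 2 were higher and none lower. The part of these in the differences between the autophagy genes was not tested in either medium.

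**Figure D1:**
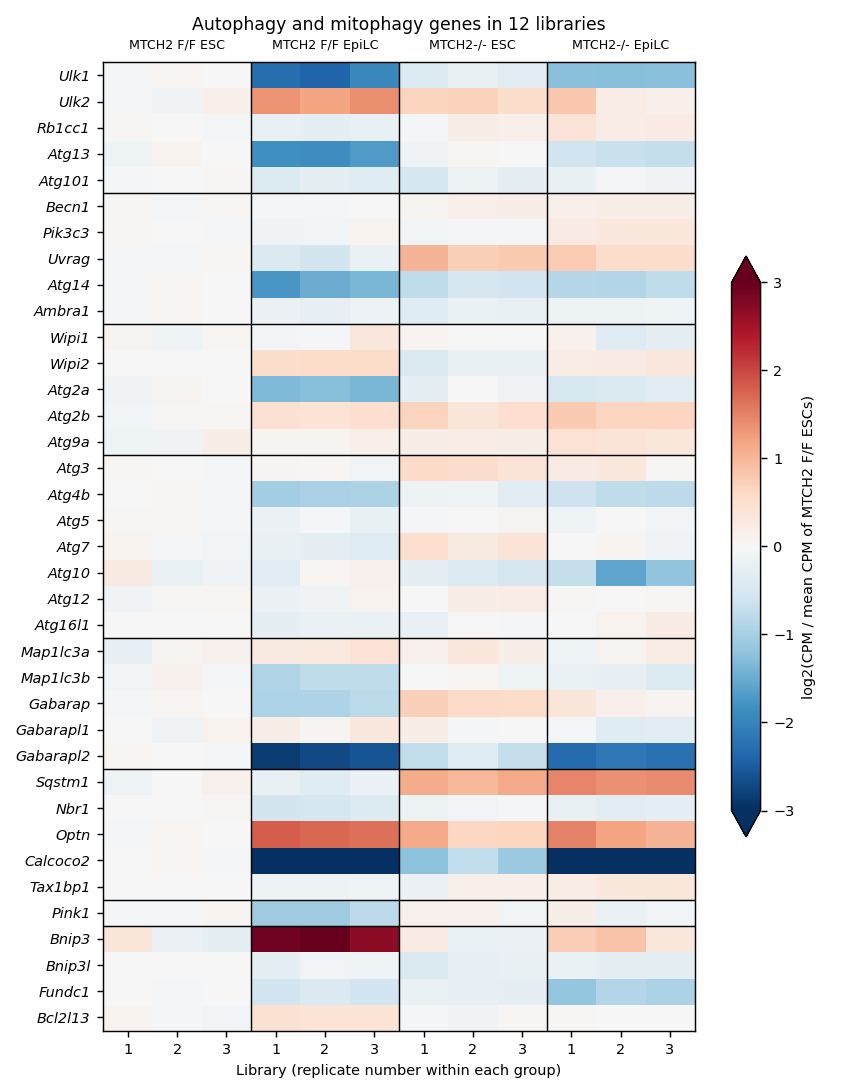
Level of each of the 37 genes (rows, ordered by role with lines between roles) in each of the 12 libraries (columns, 3 per group), as log2 of its CPM over the mean CPM of the MTCH2 F/F ESCs. Blue is lower and red higher, and the scale stops at −3 and 3, so that Calcoco2 in EpiLCs (log2 fold change of −5.83 on priming of MTCH2 F/F cells) is beyond it. The columns of the MTCH2 F/F EpiLCs hold the strongest colours, and those of the MTCH2-/- EpiLCs are paler for most of the same genes, with Sqstm1 and Uvrag as red rows in both MTCH2-/- groups.

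The response to priming differed between genotypes in 24 of the 37 genes, as tested by the difference between both log2 fold changes. In 18 the difference was above 0 and in 6 below 0, against 17.8% and 17.2% of all genes (64.9% against 35.0% in either direction), and it exceeded 2-fold in 6 and 3 (7.54% and 6.86% of all genes). In 11 of the 24 both responses passed the test with the same sign, and that of MTCH2-/- cells was the smaller. Another 3 (Rb1cc1, Atg16l1 and Sqstm1) fell with MTCH2 and rose without it, and in the other 10 the response of a single genotype passed. With the replicate number as a block, Atg14 also passed in both with the same sign (adjusted p = 0.0120 in MTCH2-/- cells). Opposite signs then passed in both for Atg101 (0.0227 in MTCH2-/- cells), Gabarapl1 and Tax1bp1 (0.0355 and 0.0427 in MTCH2 F/F cells). In MTCH2-/- cells the rise of Rb1cc1 (adjusted p = 0.0454) was lost in 8 of the 17 alternatives (up to 0.198), among them each that left out a MTCH2 F/F ESC library or replicate 1 or 3 of the MTCH2-/- ESCs or EpiLCs, and with replicate 1 of both left out (0.498). That of Atg16l1 (adjusted p = 0.0337) was lost without replicate 1 of the ESCs or replicate 2 or 3 of the EpiLCs (up to 0.176), and its fall in MTCH2 F/F cells without replicate 1 of their EpiLCs (0.0617). Both genotypes moved the same way, past the test in each, in 9 genes that fell (Calcoco2, Gabarapl2, Ulk1, Atg13, Atg2a, Atg4b, Gabarap, Map1lc3b and Nbr1) and 2 that rose (Bnip3 and Optn) with unequal size. In MTCH2-/- cells the calls of 3 of these were lost when single libraries of those cells were left out, namely Map1lc3b (replicate 2 of the ESCs or 3 of the EpiLCs, adjusted p up to 0.0819), Nbr1 (replicate 3 of the ESCs or replicate 2 or 3 of the EpiLCs, up to 0.0637) and Optn (replicate 2 or 3 of the ESCs or 1 of the EpiLCs, up to 0.0981).

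**Figure D2:**
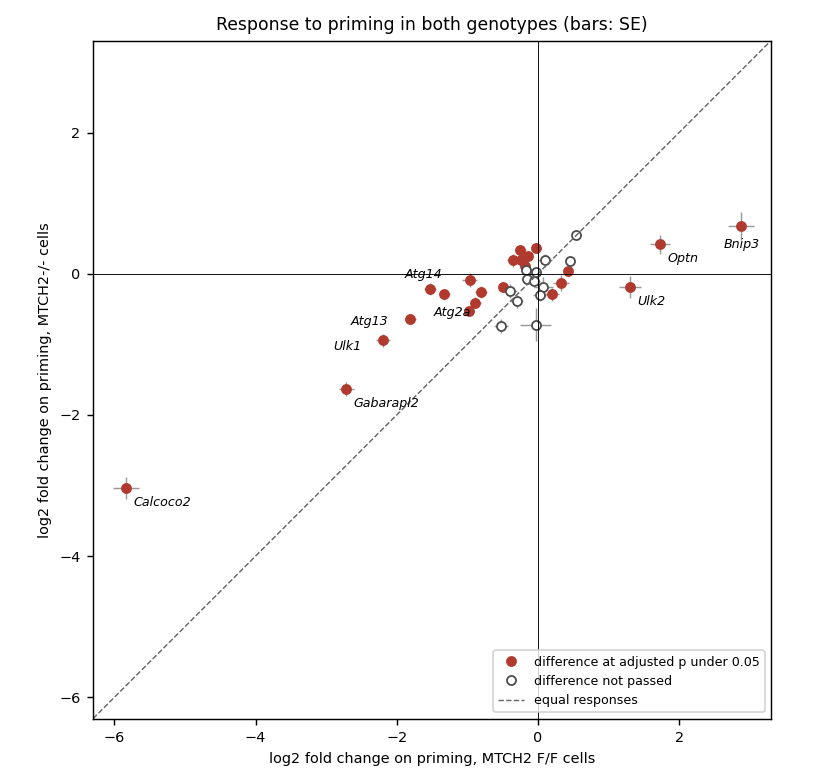
Log2 fold change on priming in MTCH2 F/F cells (x axis) and MTCH2-/- cells (y axis) for each of the 37 genes, with SE bars that are shorter than the symbols for many genes. Filled points are the 24 genes whose responses differed at an adjusted p under 0.05, names are given where either response reached 2-fold, and the dashed line marks equal responses. Calcoco2, Gabarapl2, Ulk1, Atg13, Atg14 and Atg2a lie above the line on the left, and Bnip3, Optn and Ulk2 below it on the right.

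The initiation complex was lowered by priming in MTCH2 F/F cells in 4 of its 5 genes, the exception being Ulk2, against 32.1% of all genes that fell. Ulk1 (chromosome 5, 110784488 to 110810097 of GRCm38), the kinase that starts autophagy, had 574, 619.9 and 585 CPM in MTCH2 F/F ESCs, 123, 111 and 156 in MTCH2 F/F EpiLCs, 443, 511 and 476 in MTCH2-/- ESCs and 250.1, 245 and 247 in MTCH2-/- EpiLCs. No groups overlapped, and the level after priming was higher without MTCH2 while the level before priming was lower. Ulk1 fell by 2.19 ± 0.10 on the log2 scale (4.56-fold; here and below ± is the SE of a log2 fold change) on priming of MTCH2 F/F cells and by 0.95 ± 0.09 in MTCH2-/- cells, with adjusted p = 2.87e-11 and 1.15e-06. In EpiLCs Ulk1 was 1.90-fold higher without MTCH2 (adjusted p = 7.93e-07). Its difference in ESCs, −0.31 ± 0.09, had adjusted p = 0.0132, or 0.0551 without replicate 1 of the MTCH2-/- ESCs.

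Atg13, the adaptor that holds ULK1 in its complex, had 164, 190.2 and 179 CPM in MTCH2 F/F ESCs, 49.6, 48.5 and 54.4 in MTCH2 F/F EpiLCs, 164, 186 and 179 in MTCH2-/- ESCs and 117, 112 and 108 in MTCH2-/- EpiLCs. The ESCs of both genotypes overlapped, and all MTCH2-/- EpiLC libraries lay between the MTCH2 F/F EpiLCs and the ESCs. Atg13 fell by 1.81 ± 0.07 on priming of MTCH2 F/F cells and by 0.65 ± 0.07 in MTCH2-/- cells (adjusted p = 6.67e-12 and 2.38e-06), and MTCH2-/- EpiLCs held 2.22 times as much as MTCH2 F/F EpiLCs (adjusted p = 4.32e-09).

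Ulk2, the paralog of Ulk1, ran the other way at a far lower level per kb of exon. It had 5.95, 5.76 and 6.93 CPM in MTCH2 F/F ESCs, 15.9, 14.0 and 16.2 in MTCH2 F/F EpiLCs, 9.85, 10.0 and 8.89 in MTCH2-/- ESCs and 11, 7.24 and 6.95 in MTCH2-/- EpiLCs. The MTCH2 F/F libraries were lowest in ESCs and highest in EpiLCs. The MTCH2-/- libraries lay between them, and their media overlapped through replicate 1 of the EpiLCs. Ulk2 rose by 1.31 ± 0.16 (adjusted p = 2.22e-06) on priming of MTCH2 F/F cells, and in MTCH2-/- cells its log2 fold change was −0.19 ± 0.16 (adjusted p = 0.353). Without replicate 1 of the MTCH2-/- EpiLCs that change was −0.43 and passed the test (adjusted p = 0.0164). With replicate 1 of both MTCH2-/- groups left out it was −0.42 (0.0284). Ulk2 was 1.54-fold higher in ESCs and 1.83-fold lower in EpiLCs without MTCH2. Per kb of exon, Ulk1 stood at 91.4 and Ulk2 at 1.04 in MTCH2 F/F ESCs, and at 20.1 and 2.58 in MTCH2 F/F EpiLCs. Of the scaffold Rb1cc1, also known as FIP200, and of Atg101, a partner of ATG13, the log2 fold changes in EpiLCs without MTCH2 were 0.53 and 0.23. The latter, at an adjusted p = 0.0354, did not hold in 10 of the 17 alternatives run, among them each that left out a library of the MTCH2 F/F groups or replicate 2 or 3 of the MTCH2-/- EpiLCs (adjusted p up to 0.152). For Atg101 the log2 fold change of 0.19 on priming of MTCH2-/- cells (adjusted p = 0.0973) passed with the replicate number as a block (0.0227).

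**Figure D3:**
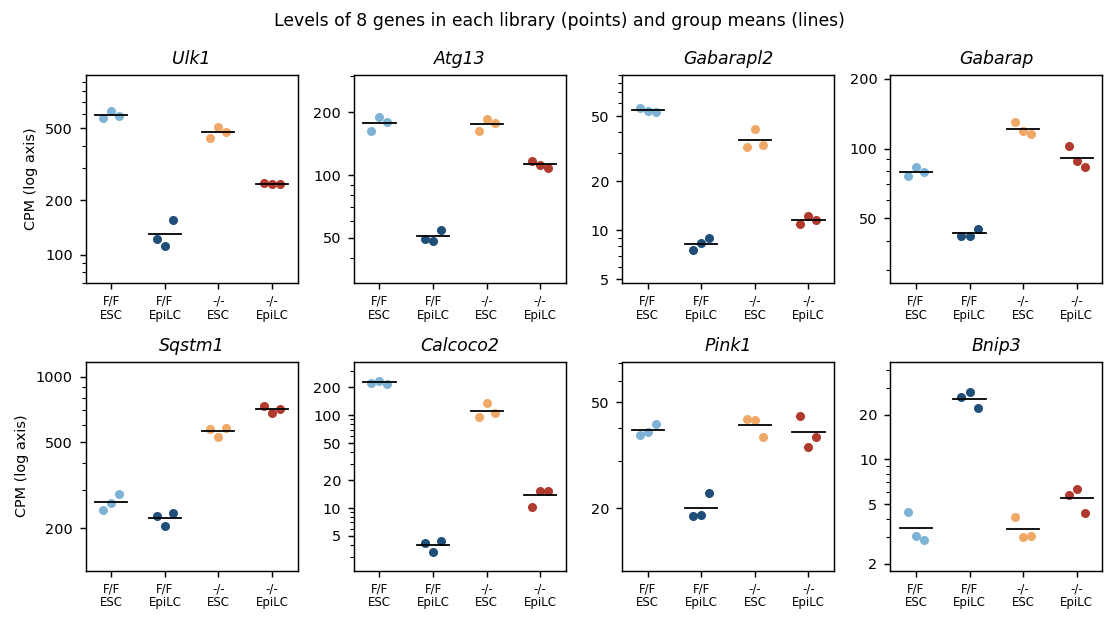
CPM on a log axis of 8 genes in each library (points) with the mean of each group (line), for MTCH2 F/F and MTCH2-/- cells as ESCs and EpiLCs, 3 libraries each. Ulk1, Atg13, Gabarapl2 and Calcoco2 drop furthest in MTCH2 F/F EpiLCs, Sqstm1 is higher in all MTCH2-/- libraries than in any other, the highest of which is at 288 CPM, and Bnip3 reaches 22.2 to 28.2 CPM in MTCH2 F/F EpiLCs alone.

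In the lipid kinase complex the largest changes were those of Atg14 and Uvrag. Atg14, the subunit that directs the complex to autophagy, had 136, 149 and 141 CPM in MTCH2 F/F ESCs, 42.4, 50.5 and 54.5 in MTCH2 F/F EpiLCs, 83.4, 101 and 94.8 in MTCH2-/- ESCs and 78.1, 77.5 and 84.0 in MTCH2-/- EpiLCs. It was highest in MTCH2 F/F ESCs and lowest in MTCH2 F/F EpiLCs, with no overlap, and the MTCH2-/- ESCs and EpiLCs overlapped with each other. Atg14 fell by 1.53 ± 0.09 on priming of MTCH2 F/F cells (adjusted p = 3.97e-10) and changed by −0.22 ± 0.09 in cells without MTCH2 (adjusted p = 0.0542, or 0.0120 with the replicate number as a block). The difference between these responses was 1.31 ± 0.12 (adjusted p = 1.16e-06).

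Uvrag, which takes the place of ATG14 in another form of the complex that acts on endosomes, had 32.8, 32.8 and 35.0 CPM in MTCH2 F/F ESCs, 24.7, 22.7 and 29.1 in MTCH2 F/F EpiLCs, 68.4, 55.0 and 57.5 in MTCH2-/- ESCs and 56.5, 48.6 and 48.0 in MTCH2-/- EpiLCs. Every MTCH2-/- library exceeded every MTCH2 F/F library. The gene was 1.80-fold higher without MTCH2 in ESCs (adjusted p = 9.46e-06) and 2.01-fold in EpiLCs (adjusted p = 6.67e-07), and its responses to priming, −0.40 with MTCH2 and −0.24 without it, were not told apart (adjusted p = 0.428). The response of MTCH2-/- cells missed the test (adjusted p = 0.0629) and passed it with the replicate block (0.0244). A predicted gene on the opposite strand covers 17.6% of the exon length of Uvrag. The sources used here do not tell if reads were counted by strand, so its counts may be affected by that gene. The core subunits moved little: the catalytic subunit Pik3c3 rose by 0.36 on priming of MTCH2-/- cells, and the log2 fold changes of Becn1, which encodes Beclin 1, lay between −0.03 and 0.19 in the 4 comparisons. Both were higher in MTCH2-/- EpiLCs, Pik3c3 by 0.32 (adjusted p = 0.000711) and Becn1 by 0.19 (0.00863). The latter call was lost without the filter on low counts (0.0780) or replicate 1 of the MTCH2 F/F EpiLCs (0.0544). Cntd1, on the other strand, covers 43.9% of the exon length of Becn1. In ESCs the difference of Becn1 between genotypes, 0.14, had adjusted p = 0.0612, or 0.0399 with the replicate block.

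Among genes of the growing phagophore, the paralogs Atg2a and Atg2b, which encode lipid transfer proteins, moved apart. Atg2a had 135, 154 and 145 CPM in MTCH2 F/F ESCs, 57.5, 59.3 and 56.0 in MTCH2 F/F EpiLCs, 118, 145 and 135 in MTCH2-/- ESCs and 104, 107 and 114 in MTCH2-/- EpiLCs. Its level was low only in MTCH2 F/F EpiLCs, 56.0 to 59.3 CPM, against 104 or more in each of the other 9 libraries. Atg2a fell by 1.33 ± 0.08 on priming of MTCH2 F/F cells and by 0.29 ± 0.07 in MTCH2-/- cells (adjusted p = 3.69e-10 and 0.00504), and was 1.88-fold higher in EpiLCs without MTCH2 (adjusted p = 8.25e-08).

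Atg2b had 94.1, 101 and 101 CPM in MTCH2 F/F ESCs, 135, 132 and 139 in MTCH2 F/F EpiLCs, 157, 127 and 139.7 in MTCH2-/- ESCs and 171, 154 and 155 in MTCH2-/- EpiLCs. It was lowest in MTCH2 F/F ESCs with no overlap, rose by 0.45 ± 0.07 on their priming (adjusted p = 5.14e-05), and was 1.43-fold higher in ESCs without MTCH2 (adjusted p = 4.75e-05). The response of Atg2b in MTCH2-/- cells, 0.18 (adjusted p = 0.0552), and its difference from that of MTCH2 F/F cells, −0.27 (adjusted p = 0.0523), missed the test and passed it with the replicate block (0.0256 and 0.0262). Wipi2, a reader of the lipid mark, rose by 0.54 in both genotypes and was 1.22-fold lower without MTCH2 in both media. Neither Wipi1, another such reader, at 14.2 to 23.5 CPM, nor the scramblase gene Atg9a, at 12.8 to 18.9 CPM, passed the test on priming. Ankzf1 on the other strand and a predicted gene on the same strand overlap the exons of Atg9a, the larger overlap being 31.8% of their length.

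The 7 genes of the conjugation system had median log2 fold changes of −0.15 and −0.30 on priming of MTCH2 F/F and MTCH2-/- cells, and of 0.02 and 0.18 between genotypes in ESCs and EpiLCs. Atg5 and Atg12, whose products are joined to each other, did not pass the test in any of the 5 contrasts. Atg4b, a protease of this system, fell by 0.98 ± 0.07 on priming of MTCH2 F/F cells and by 0.53 ± 0.07 in MTCH2-/- cells, a difference of 0.44 (adjusted p = 0.00208). Atg3, the enzyme of the last step of conjugation, had 22.4, 22.2 and 21.0 CPM in MTCH2 F/F ESCs, 23.3, 22.8 and 20.7 in MTCH2 F/F EpiLCs, 32.5, 31.5 and 28.9 in MTCH2-/- ESCs and 25.9, 27.2 and 22.6 in MTCH2-/- EpiLCs. It was highest in MTCH2-/- ESCs, without overlap, at 1.42 times the level of MTCH2 F/F ESCs (adjusted p = 0.000295). In EpiLCs its log2 difference of 0.18 had adjusted p = 0.0913, and the difference between responses of −0.32 had 0.0568, and these became 0.0387 and 0.0180 with the replicate block.

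Atg10, which joins ATG12 to ATG5, had 3.18, 2.29 and 2.48 CPM in MTCH2 F/F ESCs, 2.13, 2.76 and 2.87 in MTCH2 F/F EpiLCs, 2.19, 2.0 and 1.87 in MTCH2-/- ESCs and 1.6, 0.892 and 1.16 in MTCH2-/- EpiLCs. The MTCH2-/- EpiLCs were lowest, without overlap with any other group, and in EpiLCs the gene was 2.10-fold lower without MTCH2 (log2 fold change −1.07 ± 0.24, adjusted p = 0.00100). Priming of MTCH2 F/F cells gave it a log2 fold change of −0.03 ± 0.22, and the responses of both genotypes were not told apart (adjusted p = 0.111). The activating enzyme gene Atg7 was higher without MTCH2 by 0.39 in ESCs and 0.30 in EpiLCs, the latter with adjusted p = 0.0119, or 0.0574 with replicate 3 of the primed MTCH2 F/F cells left out. Atg16l1, which places the conjugation on the membrane, was higher by 0.35 in EpiLCs (adjusted p = 0.000574).

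**Figure D4:**
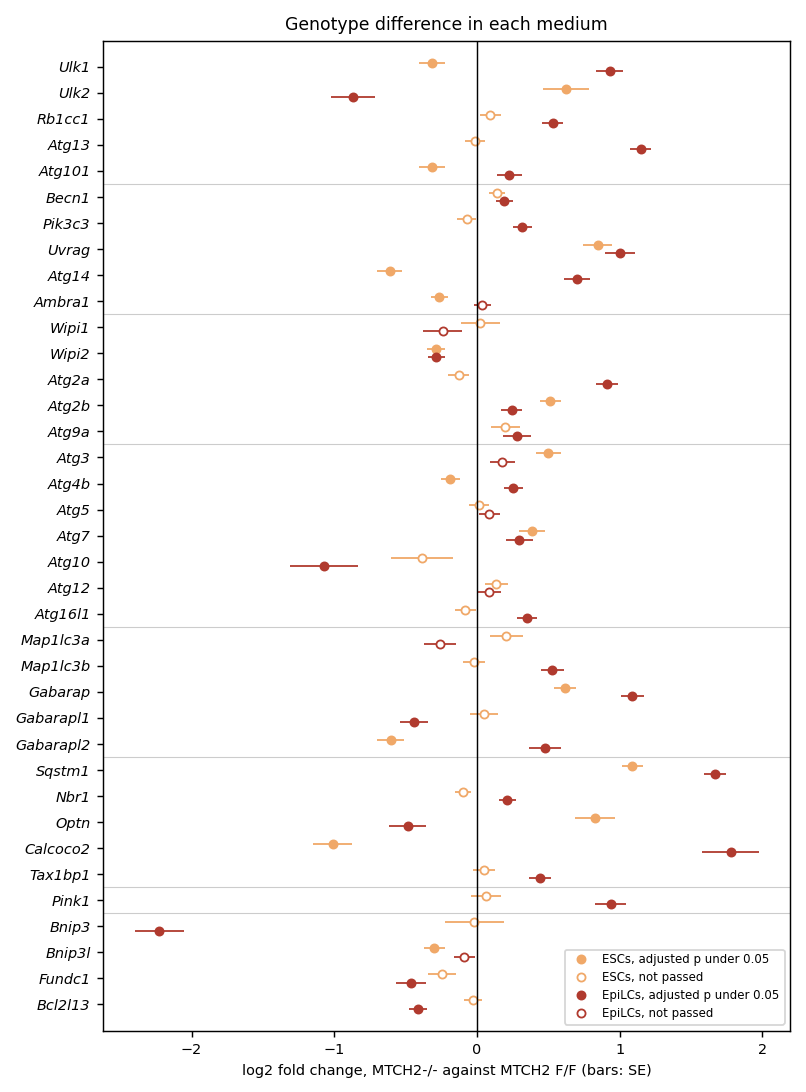
Log2 fold change of MTCH2-/- against MTCH2 F/F cells for each of the 37 genes in ESCs (orange) and in EpiLCs (dark red), with SE bars and with filled points at an adjusted p under 0.05. Orange points stay between −1.01 and 1.09, and dark red points reach from −2.23 for Bnip3 to 1.78 for Calcoco2, with 22 filled on the right of 0 and 8 on the left.

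Of the proteins that are attached to the phagophore and bind the receptors, Gabarapl2 had the steepest fall. Gabarapl2 (chromosome 8, 111940703 to 111953612), also known as GATE-16, had 56.4, 53.8 and 53.1 CPM in MTCH2 F/F ESCs, 7.59, 8.34 and 8.97 in MTCH2 F/F EpiLCs, 32.6, 41.7 and 33.2 in MTCH2-/- ESCs and 10.9, 12.2 and 11.6 in MTCH2-/- EpiLCs. Both EpiLC groups were far below both ESC groups, and the genotypes changed order between media, with no overlap in either. It fell by 2.71 ± 0.11 on priming of MTCH2 F/F cells (6.56-fold, adjusted p = 4.38e-12) and by 1.63 ± 0.10 in MTCH2-/- cells (3.10-fold, adjusted p = 6.16e-09). Without MTCH2 it was 1.52-fold lower in ESCs and 1.39-fold higher in EpiLCs (adjusted p = 0.000107 and 0.00161).

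Gabarap (chromosome 11, 69991143 to 69994951) had 75.9, 83.3 and 79.1 CPM in MTCH2 F/F ESCs, 42.0, 41.9 and 45.0 in MTCH2 F/F EpiLCs, 131, 119 and 116 in MTCH2-/- ESCs and 102, 88.6 and 83.4 in MTCH2-/- EpiLCs. It was higher without MTCH2 in both media with no overlap, 1.53-fold in ESCs and 2.13-fold in EpiLCs (adjusted p = 1.38e-05 and 1.62e-08), and the lowest MTCH2-/- EpiLC library lay just above the highest MTCH2 F/F ESC library. On priming it fell by 0.89 ± 0.08 with MTCH2 and by 0.41 ± 0.08 without it. Map1lc3b, which encodes the LC3B used to count autophagosomes, had 95.9, 113 and 98.4 CPM in MTCH2 F/F ESCs, 54.6, 60.3 and 60.8 in MTCH2 F/F EpiLCs, 102, 107 and 94.2 in MTCH2-/- ESCs and 89.4, 86.7 and 77.2 in MTCH2-/- EpiLCs. It stood apart in MTCH2 F/F EpiLCs, and the ESCs of both genotypes overlapped. On priming of MTCH2 F/F cells Map1lc3b fell by 0.80 ± 0.08 (adjusted p = 2.37e-07). Its fold change in MTCH2-/- cells, −0.26, had adjusted p = 0.0147, or 0.0619 and 0.0819 without replicate 2 of the MTCH2-/- ESCs or replicate 3 of the MTCH2-/- EpiLCs.

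Gabarapl1 and Map1lc3a did not share the fall. Gabarapl1 had 46.9, 44.0 and 51.0 CPM in MTCH2 F/F ESCs, 53.6, 50.1 and 59.0 in MTCH2 F/F EpiLCs, 54.1, 46.2 and 46.7 in MTCH2-/- ESCs and 45.8, 36.8 and 37.3 in MTCH2-/- EpiLCs, and was 1.35-fold lower in EpiLCs without MTCH2 (adjusted p = 0.00107), with no overlap. Priming changed it by 0.20 ± 0.10 on the log2 scale in MTCH2 F/F cells (adjusted p = 0.0888, or 0.0355 with the replicate block) and −0.29 ± 0.10 in MTCH2-/- cells, where adjusted p = 0.0234 became 0.0911 to 0.104 without replicate 1 of the ESCs or replicate 2 or 3 of the EpiLCs. The responses differed by −0.49 (adjusted p = 0.0114). A gene on the other strand covers 28.3% of its exon length. Map1lc3a, which encodes LC3A, had 14.8, 18.6 and 19.3 CPM in MTCH2 F/F ESCs, 21.2, 21.3 and 23.7 in MTCH2 F/F EpiLCs, 19.2, 21.7 and 19.9 in MTCH2-/- ESCs and 16.2, 18.7 and 20.6 in MTCH2-/- EpiLCs. Its 4 groups lay close together, with a log2 fold change of 0.33 on priming of MTCH2 F/F cells (adjusted p = 0.0181, or 0.0765 and 0.121 with replicate 1 of the MTCH2 F/F ESCs or replicate 3 of their EpiLCs left out) and of −0.26 between EpiLCs (adjusted p = 0.0576, or 0.0161 with the replicate block).

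Of the 5 genes listed as ubiquitin-binding receptors, 1 rose and 3 fell on priming of MTCH2 F/F cells (31.9% and 32.1% of all genes). The largest change of all 37 genes was among them. Whether the mouse product of each binds ubiquitin was not tested here. Calcoco2 (chromosome 11, 96099326 to 96111964), whose product NDP52 links ubiquitin-coated mitochondria and bacteria to the phagophore in human cells, had 224, 235 and 219 CPM in MTCH2 F/F ESCs, 4.20, 3.39 and 4.40 in MTCH2 F/F EpiLCs, 95.6, 136 and 105 in MTCH2-/- ESCs and 10.3, 15.4 and 15.4 in MTCH2-/- EpiLCs. All 4 groups were apart, and the EpiLCs of both genotypes were far below the ESCs. It fell by 5.83 ± 0.18 on the log2 scale (56.8-fold) on priming of MTCH2 F/F cells and by 3.04 ± 0.15 (8.21-fold) in MTCH2-/- cells, with adjusted p = 9.42e-12 and 6.60e-09. These responses differed 6.92-fold (adjusted p = 1.99e-06). Without MTCH2 it was 2.02-fold lower in ESCs (adjusted p = 5.73e-05) and 3.43-fold higher in EpiLCs (adjusted p = 5.04e-06).

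Sqstm1 (chromosome 11, 50199366 to 50210827) encodes p62, a receptor that is itself degraded by autophagy and whose gene also answers to oxidative stress. It had 243, 261 and 288 CPM in MTCH2 F/F ESCs, 227, 205 and 236 in MTCH2 F/F EpiLCs, 576, 529.7 and 583 in MTCH2-/- ESCs and 732, 681 and 710.0 in MTCH2-/- EpiLCs. All 6 MTCH2-/- libraries were above all 6 MTCH2 F/F libraries, by 2.13-fold in ESCs (log2 1.09 ± 0.07, adjusted p = 3.66e-08) and 3.18-fold in EpiLCs (log2 1.67 ± 0.07, adjusted p = 1.02e-10). On priming it rose by 0.33 ± 0.07 in MTCH2-/- cells (adjusted p = 0.00156). In MTCH2 F/F cells it changed by −0.25 ± 0.07 (adjusted p = 0.00721), but 0.0564 and 0.0535 without replicate 3 of the ESCs or replicate 2 of the EpiLCs. The responses differed by 0.58 (adjusted p = 0.000419). Mrnip, on the opposite strand, covers 17.3% of its exon length.

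Optn, which encodes optineurin, a receptor of ubiquitin-dependent mitophagy, rose on priming of MTCH2 F/F cells. It had 14.2, 15.5 and 15.1 CPM in MTCH2 F/F ESCs, 52.2, 49.5 and 46.8 in MTCH2 F/F EpiLCs, 32.9, 22.9 and 23.5 in MTCH2-/- ESCs and 41.6, 34.0 and 30.4 in MTCH2-/- EpiLCs. In MTCH2 F/F cells the media were far apart, and in MTCH2-/- cells they overlapped. Optn rose by 1.73 ± 0.14 (3.31-fold, adjusted p = 2.43e-08) in MTCH2 F/F cells, and in MTCH2-/- cells its log2 fold change was 0.42 ± 0.13 (adjusted p = 0.0190, or 0.0786 to 0.0981 without replicate 2 or 3 of the ESCs or replicate 1 of the EpiLCs). It was 1.77-fold higher without MTCH2 in ESCs (adjusted p = 0.000223) and 1.40-fold lower in EpiLCs (adjusted p = 0.00427). Nbr1, a receptor that works with p62, fell by 0.49 on priming of MTCH2 F/F cells and was higher by 0.21 in MTCH2-/- EpiLCs. Tax1bp1, which binds ubiquitin and recruits the initiation complex, was higher by 0.44 in MTCH2-/- EpiLCs (adjusted p = 0.000101), and on priming of MTCH2 F/F cells its log2 fold change of −0.15 missed the test (adjusted p = 0.104) and passed it with the replicate block (0.0427).

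Set against exon length, these receptors changed in make-up as well as in sum. Their summed level was 279 ± 7.49 CPM per kb (mean ± SD, n = 3) in MTCH2 F/F ESCs and 126 ± 6.10 (n = 3) in MTCH2 F/F EpiLCs, and 299 ± 7.39 (n = 3) and 283 ± 7.44 (n = 3) in MTCH2-/- ESCs and EpiLCs. Calcoco2 made up 50% of the sum in MTCH2 F/F ESCs and 1.96% in MTCH2 F/F EpiLCs, and 23.1% and 3.0% in MTCH2-/- cells. Sqstm1 made up 28.2% and 52.7% in MTCH2 F/F ESCs and EpiLCs and 56.2% and 74.6% in MTCH2-/- ESCs and EpiLCs. These sums use the exon length of all annotated transcripts and are given as a description without a test.

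**Figure D5:**
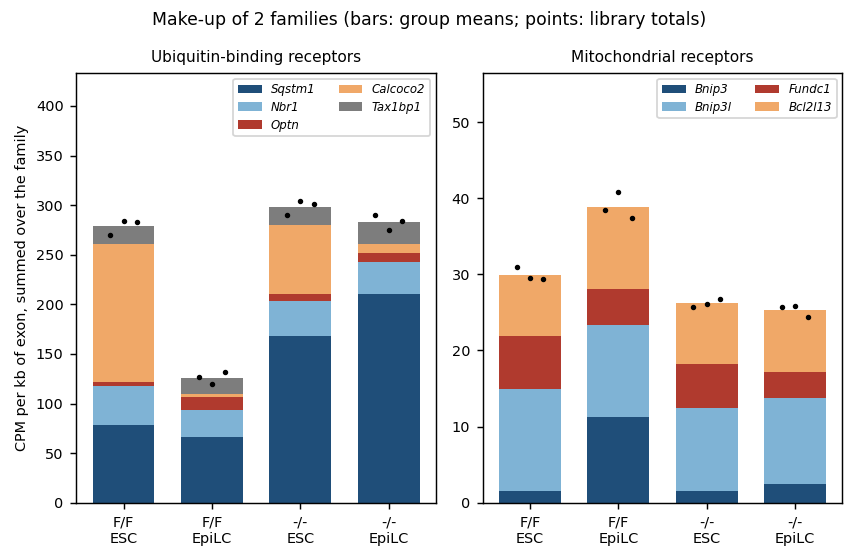
Make-up of 2 groups of receptors in CPM per kb of exon, as stacked group means (bars from 0) with the summed level of each library as a point, for MTCH2 F/F and MTCH2-/- cells as ESCs and EpiLCs, 3 libraries each. The genes listed as ubiquitin-binding receptors lose Calcoco2 in EpiLCs of both genotypes, and Sqstm1 is larger in both MTCH2-/- groups. MTCH2-/- EpiLCs sum to 283 and MTCH2 F/F EpiLCs to 126. Bnip3 is a visible part of the mitochondrial receptors in MTCH2 F/F EpiLCs.

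The gene of the kinase that marks damaged mitochondria, Pink1, differed by genotype in EpiLCs. Pink1 (chromosome 4, 138313409 to 138326307) had 37.8, 38.5 and 41.6 CPM in MTCH2 F/F ESCs, 18.7, 18.8 and 22.9 in MTCH2 F/F EpiLCs, 43.2, 42.9 and 36.9 in MTCH2-/- ESCs and 44.2, 34.1 and 37.2 in MTCH2-/- EpiLCs. Only the MTCH2 F/F EpiLCs stood apart, and the other 3 groups overlapped. Pink1 fell by 0.96 ± 0.11 on priming of MTCH2 F/F cells (adjusted p = 9.37e-07), its log2 fold change in MTCH2-/- cells was −0.09 ± 0.10 (adjusted p = 0.514), and the responses differed by 0.87 ± 0.15 (adjusted p = 0.000313). In EpiLCs it was 1.91-fold higher without MTCH2 (adjusted p = 2.09e-06).

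Of the receptors of the mitochondrial outer membrane, the 1 that changed most on priming of MTCH2 F/F cells was Bnip3 (chromosome 7, 138890836 to 138909519), a target of hypoxia-inducible factors. It had 4.47, 3.07 and 2.87 CPM in MTCH2 F/F ESCs, 26.3, 28.2 and 22.2 in MTCH2 F/F EpiLCs, 4.13, 3.02 and 3.05 in MTCH2-/- ESCs and 5.79, 6.29 and 4.34 in MTCH2-/- EpiLCs. The MTCH2 F/F EpiLCs exceeded all other libraries, and the ESCs of both genotypes overlapped. Bnip3 rose by 2.88 ± 0.18 (7.37-fold, adjusted p = 1.14e-09) on priming of MTCH2 F/F cells and by 0.67 ± 0.19 (1.6-fold, adjusted p = 0.0108) in MTCH2-/- cells. In EpiLCs it was 4.68-fold lower without MTCH2 (adjusted p = 3.53e-08), the largest genotype difference among the 37 genes. Its share of the summed level of the 4 receptor genes per kb was 5.09% in MTCH2 F/F ESCs and 29.0% in MTCH2 F/F EpiLCs, and 5.75% and 9.51% in MTCH2-/- ESCs and EpiLCs. A predicted gene on the opposite strand covers 22.3% of its exon length.

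Bnip3l, also known as NIX and needed to clear mitochondria from maturing red cells, had 51.3, 52.5 and 52.2 CPM in MTCH2 F/F ESCs, 42.9, 48.7 and 47.5 in MTCH2 F/F EpiLCs, 38.4, 44.1 and 44.4 in MTCH2-/- ESCs and 45.3, 43.4 and 42.2 in MTCH2-/- EpiLCs. It varied little, was 1.23-fold lower without MTCH2 in ESCs (adjusted p = 0.00398), and its fold change on priming of MTCH2 F/F cells, −0.16 (adjusted p = 0.0624), passed with the replicate block (0.0386). Fundc1, a receptor that acts in hypoxia, fell on priming in both genotypes, by 0.53 and 0.74, and was 1.38-fold lower without MTCH2 in EpiLCs (adjusted p = 0.00118). In ESCs its difference of −0.24 had adjusted p = 0.0554, or 0.0449 with the replicate block. Bcl2l13, held to be the mammalian counterpart of a yeast mitophagy receptor, rose by 0.42 on priming of MTCH2 F/F cells and was 1.33-fold lower in MTCH2-/- EpiLCs (adjusted p = 3.76e-05). Of the 4 genes of this role, 3 were lower in MTCH2-/- EpiLCs and none was higher. In the initiation complex 4 of 5 genes were higher there, as were 4 of 5 listed as ubiquitin-binding receptors. Of all genes, 32.3% were higher and 30.2% lower. These counts were not tested against each other.

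Other genes of the pathway were counted in 5 lists of 77 symbols, of which 74 were tested. In MTCH2-/- EpiLCs 36 of the 74 were higher and 19 lower (48.6% and 25.7%, against 32.3% and 30.2% of all genes), with a median of 0.21. In MTCH2-/- ESCs 20 were higher and 15 lower (27.0% and 20.3%, against 23.3% and 20.4% of all), with a median of 0.01. On priming of MTCH2 F/F cells 18 rose and 33 fell (24.3% and 44.6%, against 31.9% and 32.1% of all). Genes for the fusion of autophagosomes with lysosomes were higher in MTCH2-/- cells for 7 of 12 in ESCs (58.3%), with none lower, and 8 of 12 in EpiLCs (66.7%), with 2 lower (16.7%). Further selective receptors were higher in MTCH2-/- EpiLCs for 9 of 12 (75%), with 3 lower (25%). Of 20 further mitophagy genes 6 were higher (30%, close to the share of all genes) and 11 lower (55%) in MTCH2-/- EpiLCs. Of 14 genes of upstream kinases, such as mTOR and AMPK, and their regulators, 4 were higher and 2 lower there. At 28.6% and 14.3% these were below both shares of all genes. Other core genes were higher for 9 of 16 in MTCH2-/- EpiLCs (56.2%), with 1 lower (6.25%).

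Within these lists the widest genotype difference was that of Atg9b, a paralog of Atg9a, whose mean CPM in ESCs was 15.3 (SD 0.740, n = 3) with MTCH2 and 87.1 (SD 22.4, n = 3) without it, 5.69-fold higher (adjusted p = 5.41e-07), and 4.64-fold higher in EpiLCs (adjusted p = 2.91e-07). Wdr45, a reader of the lipid mark, and Tex264, a receptor for the endoplasmic reticulum, were higher in MTCH2-/- EpiLCs by 2.58-fold and 2.42-fold, after a fall of 2.19 and 1.87 on the log2 scale on priming of MTCH2 F/F cells. Nipsnap1, a mitochondrial marker for mitophagy, was 2.11-fold lower in MTCH2-/- EpiLCs (adjusted p = 9.79e-10). Atg16l2, a paralog of Atg16l1, was 2.20-fold higher in MTCH2-/- ESCs (adjusted p = 2.87e-06). Stbd1, a glycogen receptor, was 3.45-fold lower in MTCH2-/- EpiLCs, at a mean of 0.874 CPM (SD 0.272, n = 3) against 3.04 CPM (SD 0.428, n = 3), with adjusted p = 7.67e-05. In ESCs it was 2.84-fold higher at 0.333 against 0.114 CPM, where the libraries overlapped (adjusted p = 0.0464). The genes of these lists, Atg9b among them, were not checked for overlap with other genes and were not recomputed under the alternatives.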

How the data were processed

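Poly-A RNA of 12 libraries was sequenced from single ends (TruSeq v2, HiSeq2500). Per the labels and the paper's methods, the authors mapped reads to GRCm38 with TopHat2 2.0.10, counted them per gene with HTSeq 0.6.1p1 and normalized with DESeq2 1.6.3. The deposited counts are whole reads per gene symbol without normalization, and all values here come from them. The deposited normalized signal is the authors' count divided by a size factor and served only to identify the columns. Columns of the authors' own fold changes and p-values were not used. The sources used here do not give the strand setting of HTSeq, so the counts of genes overlapped by another gene may be affected by it.

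Counts were analysed with R 4.3.3 and edgeR 4.0.16 (low counts filtered, TMM scaling, 4 group means, robust quasi-likelihood F test, Benjamini-Hochberg over 17369 genes). A gene was called at an adjusted p under 0.05. The SE is the size of the log2 fold change over the square root of F. EpiLCs were compared with ESCs within each genotype, genotypes within each medium, and both responses with each other. The script was tested on simulated data. Alternatives were DESeq2 1.42.0, RLE scaling, 2 other filters, each library left out and a replicate block, with replicate 1 of both MTCH2-/- groups left out as an alternative added after seeing the data.

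The labels number the libraries, and the numbers pair them by the data: after group means were removed, all 12 pairs of the same number in compared groups correlated above 0.1 (0.107 to 0.471). Different numbers correlated at most 0.00670. Removing the means makes the deviations within a group cancel, so these low values follow in part from the same-number ones and are no separate support. The 12 pairs also share libraries. Blocked values are given where they change a call. The members and lists were chosen with earlier results of these data known, and 1 of the 38 genes is not reported here. Values per library are given for genes called at 2-fold in any contrast, for the largest genotype change of each role, and for Pink1, Bnip3, Bnip3l, Gabarap, Gabarapl1, Gabarapl2, Map1lc3a and Map1lc3b. Other pathway genes are named where called at 2-fold between genotypes. Of the 77 listed symbols, Map1lc3c, Rubcn and Rubcnl were not matched. Positions and exon lengths are from GENCODE vM21, an annotation of GRCm38 other than the authors' own, and promoters from RefSeq. A planned comparison of protein sequences was not run.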

Additional observations from a re-analysis of the deposited data

Results flagged for a closer look

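The results below were picked because the response to priming differed between MTCH2 F/F and MTCH2-/- cells in a test of that difference (edgeR, quasi-likelihood), with adjusted p under 0.05 over all genes tested. Values are the log2 fold change of MTCH2-/- cells less that of MTCH2 F/F cells, and each rests on all 12 libraries. Of the genes that fell on priming of MTCH2 F/F cells, the difference was 2.79 for Calcoco2, 1.31 for Atg14, 1.24 for Ulk1, 1.16 for Atg13, 1.08 for Gabarapl2, 1.04 for Atg2a and 0.87 for Pink1. It was 0.58 for Sqstm1, 0.55 for Map1lc3b, 0.54 for Atg101, 0.48 for Gabarap, 0.44 for Atg4b, 0.44 for Rb1cc1, 0.43 for Atg16l1, 0.31 for Nbr1 and 0.30 for Ambra1. The fall of Ambra1 in MTCH2 F/F cells (adjusted p = 0.0104) was lost without replicate 2 of their ESCs (0.0679) or of their EpiLCs (0.0660). Pik3c3 and Tax1bp1, which had not passed the test on priming of MTCH2 F/F cells, differed by 0.39 each. Among genes that rose there, the difference was −2.21 for Bnip3, −1.50 for Ulk2, −1.31 for Optn, −0.39 for Bcl2l13 and −0.47 for Map1lc3a. For Gabarapl1 it was −0.49. The difference of Map1lc3a (adjusted p = 0.0339) was lost in 7 of the 12 runs that left out a library, with adjusted p of 0.0517 to 0.109, these being the runs without replicate 1 of the MTCH2 F/F ESCs, any MTCH2 F/F EpiLC library, replicate 2 or 3 of the MTCH2-/- ESCs and replicate 1 of the MTCH2-/- EpiLCs. It was also lost with replicate 1 of both MTCH2-/- groups left out (adjusted p = 0.0610).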

How the results depend on the processing

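Each of the 185 results (37 genes in 5 contrasts) was recomputed under 17 alternatives, except 15 of Ulk2, Atg10 and Bnip3, which a filter at a mean of 10 CPM removes. None reversed, 99 of the 119 that passed the test kept their call throughout, 20 lost it in at least 1, and 18 that had not passed did so in at least 1. None of the 29 called results of at least 2-fold was lost where it was tested, and 6 of them were not tested with that filter. With it, on 34 genes, 5 genes rose on priming of MTCH2 F/F cells in place of 7, and 5 were lower in MTCH2-/- EpiLCs in place of 8. Without replicate 3 of the MTCH2-/- EpiLCs, 9 genes fell on priming of MTCH2-/- cells in place of 14 and 5 rose in place of 8. Over the runs that left out a library, 9 to 17 genes fell and 5 to 9 rose on that priming, and 17 to 21 fell and 6 to 7 rose on priming of MTCH2 F/F cells. In MTCH2-/- ESCs 8 to 9 were higher and 8 to 10 lower, and in MTCH2-/- EpiLCs 19 to 22 and 8 to 9. The difference between responses was above 0 for 18 in each such run and below 0 for 5 to 7. With the replicate number as a block no call was lost and 13 were gained, so that 23 genes were higher and 9 lower in MTCH2-/- EpiLCs. With replicate 1 of both MTCH2-/- groups left out, chosen after seeing the data, the calls lost were those of Rb1cc1 on priming of MTCH2-/- cells (adjusted p = 0.498), Ulk1 between ESCs (0.0696), Atg9a between EpiLCs (0.0524) and Map1lc3a between responses (0.0610). RLE scaling shifted the genes by at most 0.02 on the log2 scale. Atg10, at no more than 3.18 CPM in any library, had the largest SE of the 37 genes in every contrast.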
